A study of Sus scrofa with 5 samples.

Results

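The miRNAs of urinary exosomes were compared with those of serum, plasma, semen and bile exosomes from pigs of the Rongchang breed aged 180 days. Exosomes are small vesicles that cells shed into body fluids. A miRNA counted as a member of the urine set when it had 10 or more counts in the urine library, and 84 of the 411 mature miRNA names in the deposited tables did so. Each fluid was represented by 1 library, all 5 groups share breed and age, and how many animals gave each fluid is not stated in the labels. Differences below are therefore differences between 5 libraries, described by size and without any test over animals.

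A miRNA is a short RNA that guides Argonaute proteins to partly complementary sites in mRNAs, mostly through its seed, the bases near its 5′ end, so miRNAs with a common seed form families. The hairpin precursor has a 5p and a 3p arm, and usually one arm accumulates. Exosomes of urine are shed largely by the epithelium that lines the nephron and the urinary tract, together with podocytes, the filtering cells of the glomerulus. The miR-30 family is abundant in kidney and needed by podocytes, miR-204 is made in kidney epithelium, and miR-192, miR-194 and miR-215 come from kidney, gut and liver.

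The urine library was thin in miRNA. It held 26522 miRNA counts, against 473168 in serum, 1153755 in plasma, 2284926 in semen and 1673239 in bile, although the totals behind the authors' RPM values, which are counts scaled to a library total of 1000000, were of similar size, 10796774 in urine and 7207788 to 10801967 in the others. Which reads those totals hold is not stated. Listed miRNAs made up 0.246% of that total in urine and 4.47% to 21.2% of the others. No value above 0 was below 10 in any file, so a listed 0 stands for fewer than 10 reads. That limit lies at 377 CPM (counts scaled to 1000000 miRNA counts of the library) in urine and at 4.38 to 21.1 CPM elsewhere. A member had thus to reach a level in urine that many miRNAs listed in the other fluids do not reach. All intervals are 95% intervals for counting error alone, since PCR reads are not independent molecules and no animal-to-animal spread was measured.

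Of the 84 members, 7 had at least 1000 counts, 26 at least 100, 38 between 20 and 99, and 20 between 10 and 19. Their median was 39 counts. The members just inside the threshold were miR-122, the hepatocyte miRNA, and miR-423-3p, with 10 counts each. In urine 3 miRNAs carried over 50% of the counts and 21 carried 90%, beside 6 and 33 in serum, 2 and 7 in plasma, 1 and 11 in semen, and 3 and 14 in bile. By the number that made up 90%, urine was less concentrated than plasma, semen and bile and more so than serum. The other fluids also listed most of the members: 80 of 84 in bile, 77 in semen, 75 in serum and 73 in plasma, and 67 in all 5 fluids. Of all 237 names listed in any fluid, bile listed 179, semen 174, serum 180 and plasma 161. The 84 members took 98.9% of bile, 98.6% of semen, 93.4% of plasma and 91.0% of serum counts.

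miR-30a-5p led the urine library with 5855 counts, 22.1% (21.6 to 22.6). It stood at rank 10 in bile with 1.94%, rank 13 in semen with 0.863%, rank 40 in serum with 0.323% and rank 45 in plasma with 0.0423%. Urine alone had it in first place. miR-148a-3p, abundant in liver, was the second in urine with 4401 counts, 16.6% (16.1 to 17.0), and its share was higher in semen (52.8%), bile (32.1%) and serum (18.1%). The ratio of these leading miRNAs does not depend on how a library is scaled: miR-30a-5p had 1.33 counts per count of miR-148a-3p in urine (1.28 to 1.38), but 0.0604 in bile, 0.0299 in plasma, 0.0179 in serum and 0.0163 in semen.

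miR-10b, which lies within a HOX gene cluster, was the third with 3184 counts, 12.0% (11.6 to 12.4). Its share was 4.98% in semen, 0.569% in serum, 0.201% in bile and 0.0205% in plasma. It was at 2.41 times semen by share, and under 2-fold with DESeq2 size factors (1.60 times), totals without each library's most abundant miRNA (1.46 times) and TMM, edgeR's trimmed mean library sizes (1.22 times). After it the order became shallow. miR-10a-5p with 1229 counts (4.38% to 4.89%), miR-21 with 1204 (4.29% to 4.80%), miR-26a with 1126 (4.01% to 4.50%) and miR-99a with 1086 (3.86% to 4.34%) overlapped with their neighbours in the order. let-7f followed with 986, let-7i with 916 and let-7g with 698. miR-21, a miRNA raised in injured and proliferating epithelium, held 4.54% in urine, near 0.52 times its semen share and 0.53 times its bile share, and 1.73 times its serum share. miR-26a, broadly expressed, was at 2.30 times serum, 3.39 times bile and 138 times plasma. Against semen it was at 1.29 times by share, and at 0.650 to 0.854 times with TMM, DESeq2 size factors or totals without each library's most abundant miRNA. miR-99a was within 2-fold of serum, semen and bile.

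**Figure D1:**
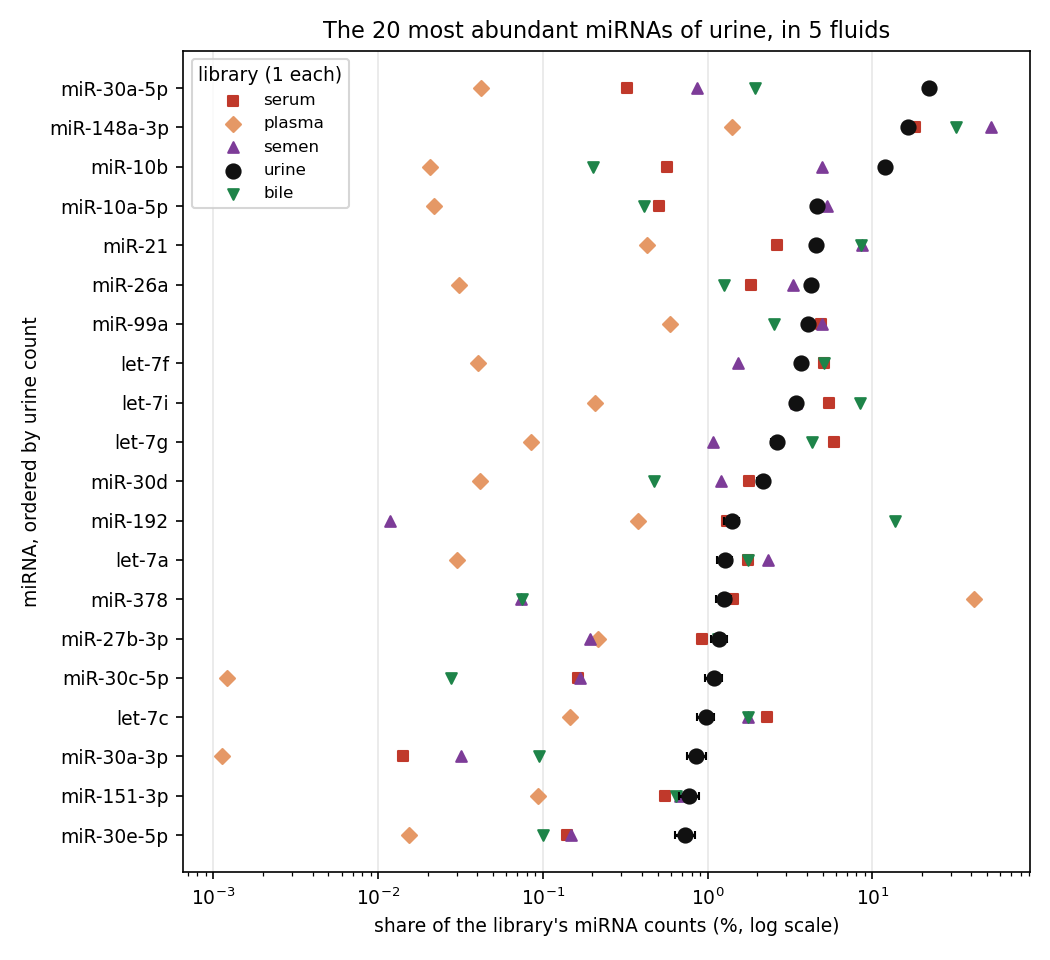
Share of each library's miRNA counts (percent, log axis) for the 20 most abundant miRNAs of urine in the 5 libraries, 1 point per library, with 95% counting intervals on the urine points. Urine lies to the right of every other fluid for miR-30a-5p (22.1%) and miR-10b (12.0%), whereas for miR-148a-3p semen, bile and serum lie further right.

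The remaining top 20 held 4 more names of the miR-30 family. miR-30d had 575 counts, miR-30c-5p 289, miR-30a-3p 227 and miR-30e-5p 194. miR-192 had 371 counts, 1.40% (1.26 to 1.55), level with serum at 1.07 times but 0.102 times bile. miR-378, which took 41.4% of plasma, had 332 counts or 1.25% in urine, 0.0302 times plasma and 0.874 times serum. let-7a with 338, miR-27b-3p with 313, let-7c with 259 and miR-151-3p with 205 completed the list. miR-27b-3p was at 1.03 times bile (0.914 to 1.15) and miR-151-3p at 1.13 times semen (0.978 to 1.29), so neither was separable from the next fluid by counting error.

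**Figure D2:**
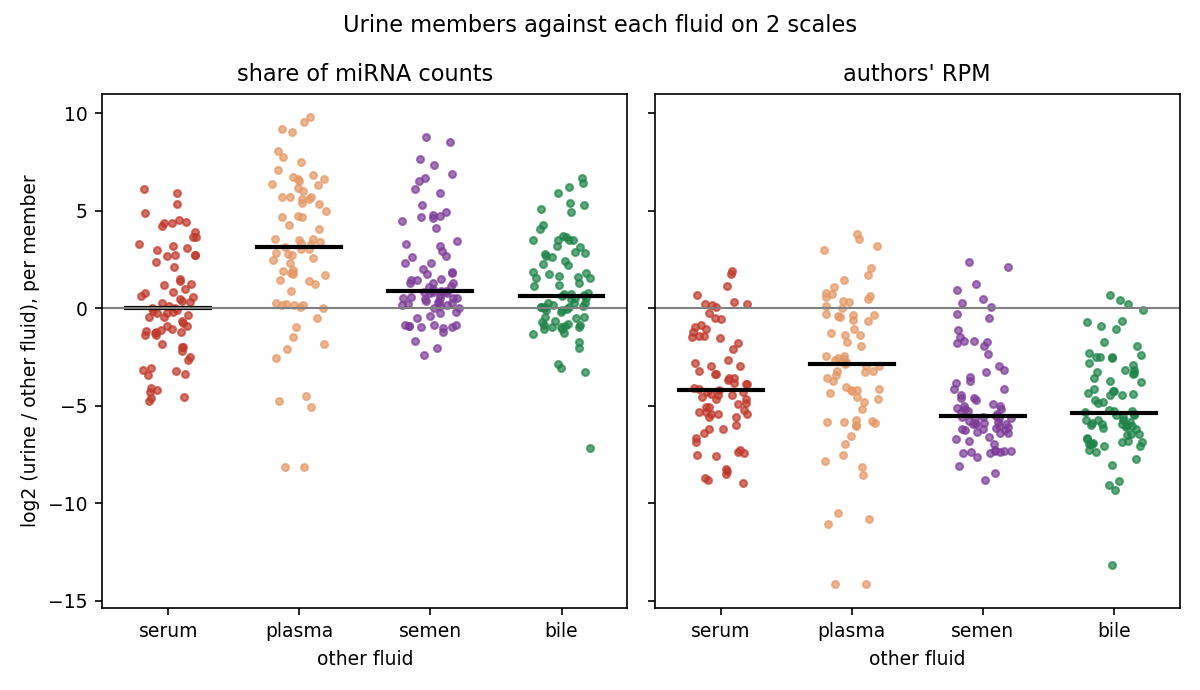
log2 ratio of urine to each other fluid for the members listed in both, 1 point per member and a bar at the median, on the share of miRNA counts (left) and on the authors' RPM (right). On shares the medians lie between -0.00 (serum) and 3.15 (plasma), and on RPM all 4 medians lie below 0, at -2.88 to -5.53.

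Pair by pair, a member was called when its CPM in urine was at least 2 times that of the other fluid, or at most 1 over 2 of it. A 0 in the other fluid was taken as 10 counts, which makes the ratio a lower bound. Against serum, 35 members were higher in urine and 25 lower. Of all 189 names listed in either fluid, 18.5% were called higher and 21.2% lower, and since a name at 0 in urine can only be called lower, the higher calls are by construction all members. The median log2 ratio of members listed in both was -0.00. The members furthest above serum, among those listed in both, were both arms of miR-30a, miR-30a-5p at 68.4 times and miR-30a-3p at 60.4 times. Furthest below were miR-23a at 0.0363 times, on 12 urine counts, miR-423-5p at 0.0411 times, miR-140-3p at 0.0427 times and miR-146a-5p, an immune-cell miRNA, at 0.0503 times.

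Against plasma, 65 members were higher and 9 lower, with 37.8% and 12.2% of 172 names called. The median log2 ratio was 3.15. In plasma miR-378 held 41.4%, miR-320 25.6% and miR-423-5p 16.9% of the counts, which left a small share for every other name. miR-30c-5p was at 898 times, miR-30a-3p at 760 times and miR-10b at 584 times plasma, the first 2 resting on 14 and 13 plasma counts. miR-320 at 0.00353 times, miR-423-5p at 0.00358 times and miR-378 lay furthest below. The split moved with the scaling: with TMM 39 members were higher than plasma and 30 lower, and with DESeq2 size factors 41 and 28.

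Against semen, 45 members were higher and 5 lower, with 24.9% and 4.42% of 181 names called. The median log2 ratio was 0.90. Among members listed in both, miR-1, a muscle miRNA, stood furthest above semen at 441 times, followed by miR-363 at 368 times. The 5 members called lower were miR-210, which hypoxia induces, at 0.192 times, miR-186 at 0.243 times, miR-148a-3p at 0.314 times, miR-423-5p at 0.431 times and miR-423-3p at 0.495 times. Against bile, 40 members were higher and 10 lower, with 21.9% and 7.1% of 183 names called, and the median log2 ratio was 0.65. miR-450c-5p at 102 times, miR-9 at 85.6 times and miR-363 at 75.4 times lay furthest above bile among members listed in both. miR-122 at 0.00690 times (0.00331 to 0.0127), miR-192 at 0.102 times, and the mesenchymal miRNAs miR-199a-3p at 0.118 times and miR-143-3p at 0.136 times lay furthest below. The called shares moved with the scaling here too. With TMM 33 members were higher than semen and 16 lower, and 30 were higher than bile and 32 lower. With DESeq2 size factors the counts were 36 and 14 for semen and 37 and 18 for bile.

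On the authors' RPM, most members were lower in urine than elsewhere. For each member listed in both fluids, the RPM of the other fluid was divided by that of urine. The median of these ratios was 18.2 for serum, 7.35 for plasma, 46.2 for semen and 41.2 for bile. On that scale 61 of the 84 members were at least 2-fold lower than serum, 49 than plasma, 68 than semen and 73 than bile. By share these counts were 25, 9, 5 and 10. Calls over all names were not counted on RPM. miR-30a-5p stood at 542 RPM in urine, beside 3072 in bile, 1826 in semen, 144 in serum and 67.7 in plasma. Its RPM was thus above both blood fluids and below bile and semen. miR-10b stood at 295 RPM in urine, 10529 in semen, 318 in bile, 254 in serum and 32.9 in plasma. By RPM 4 members were highest in urine: miR-450c-5p at 5.09 against 3.22 in bile, miR-1285 at 3.33 and listed at 0 elsewhere, miR-196b-5p at 3.33 against 1.76 in semen, and miR-4331 at 2.59 against 1.60 in serum.

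The miR-30 family had a larger share in urine than in any of the other 4 libraries. The family was taken by name and not by seed, so both arms were counted. Of the 9 names counted, 8 were members. The family took 27.6% of urine counts (27.0 to 28.1), against 2.81% in bile, 2.67% in serum, 2.55% in semen and 0.110% in plasma. A further name, miR-30c-1-3p, was not counted. It had 29 counts in semen and 11 in bile and was listed at 0 in urine. Urine had the highest family share under summed counts, TMM, DESeq2 size factors and totals without each library's most abundant miRNA. It was at 4.54 to 9.83 times the next fluid, which was bile or semen. On RPM it came to 0.126 times semen, the highest fluid, and 0.152 times bile. All 8 members had their highest CPM in urine, as did 37 of all 84 members. Of the 8, 6 were at least 2-fold above each other fluid, beside 21 of all 84. Across all names listed in any fluid, 21 of 237, or 8.86%, were 2-fold above each other fluid. All 21 were among the 84 members, since a name at 0 in urine cannot be called higher. With TMM 7 of the family were highest in urine and 5 were 2-fold above, miR-30d then being at 0.901 times semen, and on RPM none was highest in urine. Without miR-30a-5p the other names of the family still took 5.49% of urine (5.22 to 5.77), beside 2.35% in serum, 1.68% in semen, 0.867% in bile and 0.0677% in plasma.

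Within the family the members differed. miR-30c-5p had 289 counts in urine, 777 in serum, 14 in plasma, 3848 in semen and 461 in bile, and its share was 6.47 times the next fluid, semen (5.72 to 7.29). miR-30e-5p had 194, 663, 177, 3404 and 1690 counts in the same order and was at 4.91 times semen (4.23 to 5.68). miR-30d, in contrast, with 575, 8418, 482, 27695 and 7888 counts, was at 1.22 times serum (1.12 to 1.33), and miR-30b-5p with 54 urine counts was at 1.50 times serum. In the genome miR-30d and miR-30b are neighbours, and so are miR-30e and 1 of the 2 miR-30c genes. The second pair had the higher ratios. miR-30a-5p was above both pairs, at 11.4 times bile (11.1 to 11.7), or 5.27 times with TMM.

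The arms of miR-30a held a similar balance in the 5 libraries: the 5p arm took 96.3% of the counts of both arms in urine (95.8 to 96.7), 95.8% in serum, 97.4% in plasma, 96.5% in semen and 95.4% in bile. This share is independent of library scaling. For miR-30e it was 71.3% in urine (65.6 to 76.6), 55.3% in serum, 81.2% in plasma, 66.9% in semen and 54.3% in bile. For miR-30c it was 88.1% in urine (84.1 to 91.4), 96.2% in semen (95.6 to 96.8), 62.0% in bile (58.4 to 65.5) and 45.2% in plasma (27.3 to 64.0), while serum listed the 5p arm alone, with 777 counts. The miR-30c shares leave out miR-30c-1-3p, with 29 counts in semen and 11 in bile. Of 27 hairpins with both arms named and at least 1 arm a member, 5 had both arms listed in urine. Beside the 3 above these were miR-374a, with 19 counts of the 5p and 14 of the 3p arm, and miR-423, with 16 and 10. The miR-423 share of 61.5% (40.6 to 79.8) included the 64.7% of semen in its interval and lay below 81.1% in serum, 90.1% in bile and 99.0% in plasma.

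**Figure D3:**
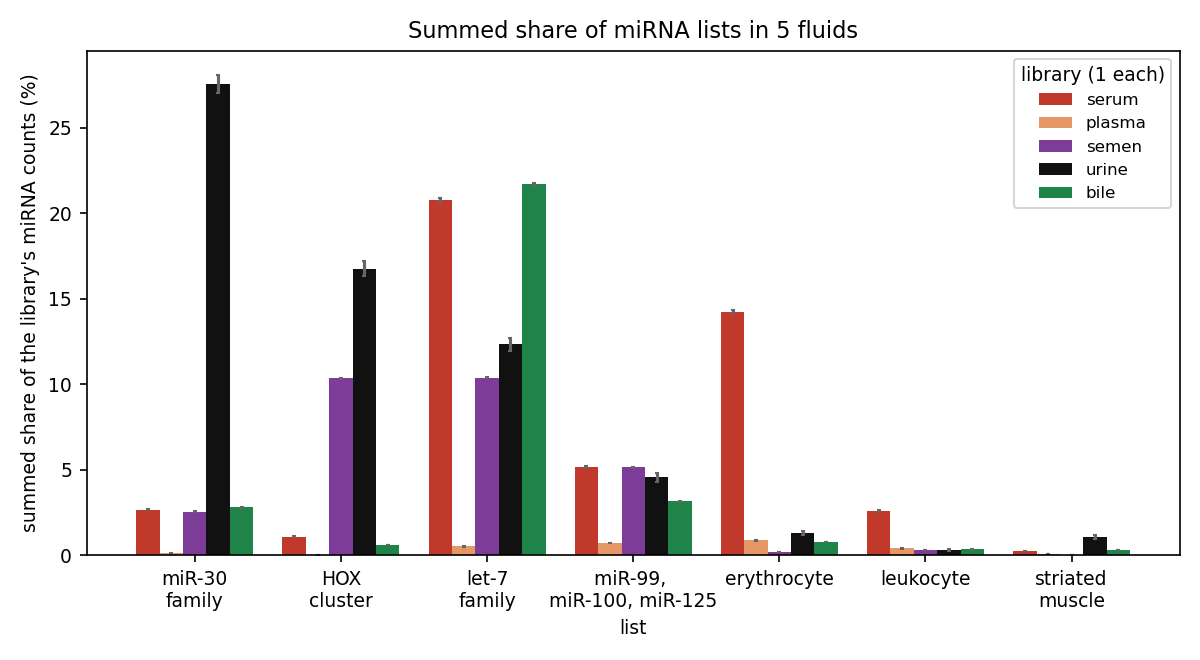
Summed share of each library's miRNA counts (percent, axis from 0) for 7 lists of miRNAs in the 5 libraries, with 95% counting intervals. Urine has the tallest bar for the miR-30 family (27.6%), the HOX cluster names (16.8%, below semen with TMM) and the striated muscle names (1.08%), and a low bar for the erythrocyte list (1.30%) beside serum (14.2%).

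Among the kidney tubule names counted, 13 of the 18 listed in any fluid were members. The list, which also leaves out miR-30c-1-3p, took 46.2% of urine counts (45.6 to 46.8), against 17.7% in bile, 12.9% in semen, 8.03% in serum and 0.809% in plasma. The urine sum was highest under the same 4 scalings, at 1.21 times bile with TMM, and below bile on RPM. The list contains the miR-30 and miR-10 names, which gave most of its 12256 urine counts. The miR-30 names gave 7311, miR-10b 3184 and miR-10a-5p 1229. In bile, by contrast, miR-192 gave 229971 of the list's 295706 counts, and in urine 371. Outside the miR-30 and miR-10 names, miR-204 had 125 counts in urine, 260 in bile and 156 in semen. It was listed at 0 in serum and plasma. It was thus listed in neither blood fluid, and stood at 30.3 times bile by share (24.3 to 37.7), or 14.0 times with TMM. miR-194a had 36 counts, above serum (22.9 times), plasma and semen, and at 0.305 times bile. miR-215, a relative of miR-192, had 13939 counts in serum, 3091 in plasma and 476 in bile, and was listed at 0 in urine. In serum miR-192 had 6175 counts, fewer than miR-215, whereas urine listed miR-192 alone. Their sequences are close, and the rule for reads that match both was not given.

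The HOX cluster names took 16.8% of urine (16.3 to 17.2), 10.3% of semen, 1.08% of serum, 0.615% of bile and 0.0423% of plasma. Urine was the highest by summed counts and DESeq2 size factors, at 1.62 and 1.07 times semen. With TMM and with totals without the top miRNA it was at 0.817 and 0.982 times semen, so the scaling sets the order of these fluids. miR-196b-5p, from a HOX cluster, had 36 counts in urine, 16 in serum and 19 in semen and was listed at 0 in plasma and bile. By share it was at 40.1 times serum (21.7 to 77.5). With plasma at its floor as the next fluid, it was at least 18.9 times by DESeq2 size factors or 14.0 times by TMM. The miR-200 family, which keeps epithelial cells epithelial, was represented by miR-429. It had 29 counts in urine, 1763 in semen and 338 in bile, with none listed in serum or plasma, and was at 1.42 times semen (0.946 to 2.04), or 0.714 times with TMM. The other listed names of that list, miR-205 and miR-31, were at 0 in urine.

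The let-7 family, which restrains growth and stem-cell genes, took 12.3% of urine, 10.4% of semen, 20.8% of serum, 21.7% of bile and 0.517% of plasma. These sums too were taken by name and not by seed, so they hold let-7d-3p, which was listed at 0 in urine. Of the 8 let-7 members none was called higher than bile and 1 lower, let-7i at 0.411 times. Over all 84 members 47.6% were higher and 11.9% lower, and over all names 21.9% and 7.1%. With TMM 7 of the 8 were called lower than bile, beside 32 of all 84 members. With DESeq2 size factors 4 of the 8 were, beside 18 of all 84. Against serum 1 was higher and 3 were lower, beside 41.7% and 29.8% of all members and 18.5% and 21.2% of all names. Against plasma all 8 were higher, beside 77.4% of all members and 37.8% of all names. With TMM 5 of the 8 were higher than plasma, beside 39 of all 84 members. The sum was at 1.19 times semen by share, and at 0.598 to 0.785 times with TMM, DESeq2 size factors and totals without the top miRNA. The miR-99, miR-100 and miR-125 names, often transcribed with let-7, were all members and took 4.56% of urine, beside 5.17% in serum, 5.16% in semen, 3.15% in bile and 0.712% in plasma. With TMM the sum was lower in urine than in plasma and bile, at 0.571 and 0.669 times, and with DESeq2 size factors lower than in plasma, at 0.774 times. miR-125a, with 31 urine counts, was at 2.84 times semen (1.92 to 4.05), and under 2-fold with TMM (1.43 times), DESeq2 size factors (1.88 times) and totals without the top miRNA (1.72 times).

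**Figure D4:**
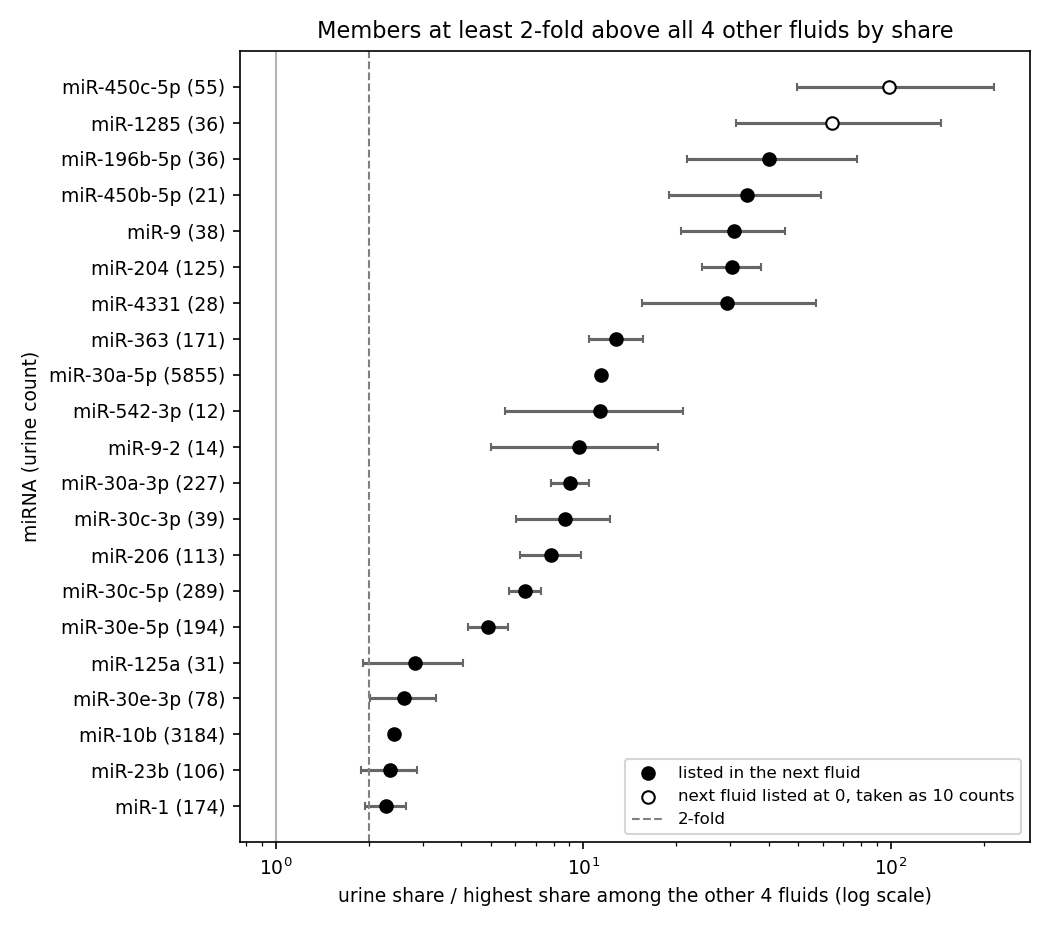
Ratio of the urine share to the highest share among the other 4 fluids (log axis) with 95% counting intervals for the 21 members at least 2-fold above all 4, with the urine count beside each name. Open points are lower bounds, because the next fluid was listed at 0, and miR-450c-5p stands furthest right at 98.1.

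The 21 members above all 4 other fluids took 40.8% of urine counts, and 18 of them kept an interval past 2-fold. Among those with at least 30 counts, miR-450c-5p had the largest ratio: 55 counts in urine, 34 in bile and none listed in serum, plasma or semen, at least 98.1 times with serum at its floor (lower end 49.5). With plasma at its floor as the next fluid, that bound fell to 28.9 under DESeq2 size factors or 21.3 under TMM. miR-1285 had 36 counts in urine and was listed nowhere else, at least 64.2 times (lower end 31.2), a bound of 18.9 under DESeq2 size factors or 14.0 under TMM. miR-9, best known from neurons, had 38 counts in urine, 106 in semen and 28 in bile, at 30.9 times semen (20.7 to 45.1), and at least 14.7 times plasma, then the next fluid, with TMM. miR-363 had 171 counts in urine, 239 in serum, 151 in plasma, 40 in semen and 143 in bile, at 12.8 times serum (10.4 to 15.6), and with TMM 4.39 times plasma, then the next fluid. miR-30c-3p with 39 counts was at 8.69 times bile (6.05 to 12.2), or 4.02 times with TMM. The muscle miRNAs miR-206, with 113 counts, and miR-1, with 174, were at 7.84 times serum (6.23 to 9.82) and 2.27 times bile (1.94 to 2.65). With TMM miR-206 was level with plasma, at 1.003 times, and miR-1 with bile, at 1.05 times. Another of the 21, miR-9-2 with 14 counts, was at 9.67 times plasma by share and 0.862 times with TMM. The list of 6 striated muscle names listed anywhere had no other member in urine: miR-133b, the genomic neighbour of miR-206, had 223 counts in serum and 129 in plasma and none listed in urine, bile or semen. Both arms of miR-133a and miR-499-5p were also at 0 in urine. The muscle sum was 1.08% in urine (0.961 to 1.21), 0.328% in bile, 0.256% in serum, 0.0688% in plasma and 0.0208% in semen.

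Several of these miRNAs lie side by side in the genome. Of the 84 members 81 matched a miRNA gene in RefSeq's Sscrofa11.1 table, which was used for gene order alone, with genes within 10 kb counted as neighbours. The miR-450b, miR-450a, miR-450c and miR-542 genes form such a group, and 3 names from it were members: miR-450c-5p with 55 counts, miR-450b-5p with 21 and miR-542-3p with 12. Bile listed the same 3 with 34, 39 and 67 counts, and plasma listed miR-450b-5p with 14. In serum and semen none of them was listed. The ratio over the next fluid was 34.0 for miR-450b-5p (19.0 to 59.2) and 11.3 for miR-542-3p (5.56 to 21.1). With TMM plasma was next, at 5.82 for miR-450b-5p and at least 4.65 for miR-542-3p. miR-363 is the neighbour of miR-106a, miR-18b, miR-20b, miR-19b and miR-92a. miR-92a, which has a second gene elsewhere, had 51 urine counts and was at 0.0589 times serum. miR-106a, miR-18b, miR-20b and miR-19b were listed at 0 in urine.

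The balance between related miRNAs can be compared without a library total. In urine miR-30a-5p made up 91.1% of miR-30a-5p plus miR-30d (90.3 to 91.7), against 80.4% in bile, 50.3% in plasma, 41.6% in semen and 15.4% in serum. miR-10b made up 72.2% of the miR-10 pair (70.8 to 73.5), against 53.0% in serum, 48.6% in plasma, 48.3% in semen and 32.7% in bile. miR-23b and miR-23a, from separate gene clusters, gave 106 and 12 counts, 89.8% miR-23b (82.9 to 94.6), against 72.6% in semen, 49.3% in bile, 12.0% in serum and 3.48% in plasma. For their cluster neighbours miR-27b-3p and miR-27a the share was 93.7% in urine (90.5 to 96.1), 88.1% in bile, 84.4% in semen, 76.1% in plasma and 67.6% in serum. miR-363 made up 77.0% of miR-363 plus miR-92a (70.9 to 82.4), and at most 19.3% elsewhere. These 5 pairs were chosen from 11 after their values were seen. In each, urine was highest and its counting interval lay above the interval of every other fluid. Of the other pairs, urine was also highest for miR-30a-5p with miR-148a-3p, miR-99b with miR-99a and miR-30c-5p with miR-30d. It was not highest for miR-192 with miR-194a (91.2%, plasma 99.6%), let-7e with miR-125a (43.6%, bile 79.5%) and miR-30e-5p with miR-30d (25.2%, plasma 26.9%). The members of the miR-10, miR-23 and miR-27 pairs, and miR-30a-5p and miR-30d, have nearly the same sequence, so reads could have been counted for the other name.

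**Figure D5:**
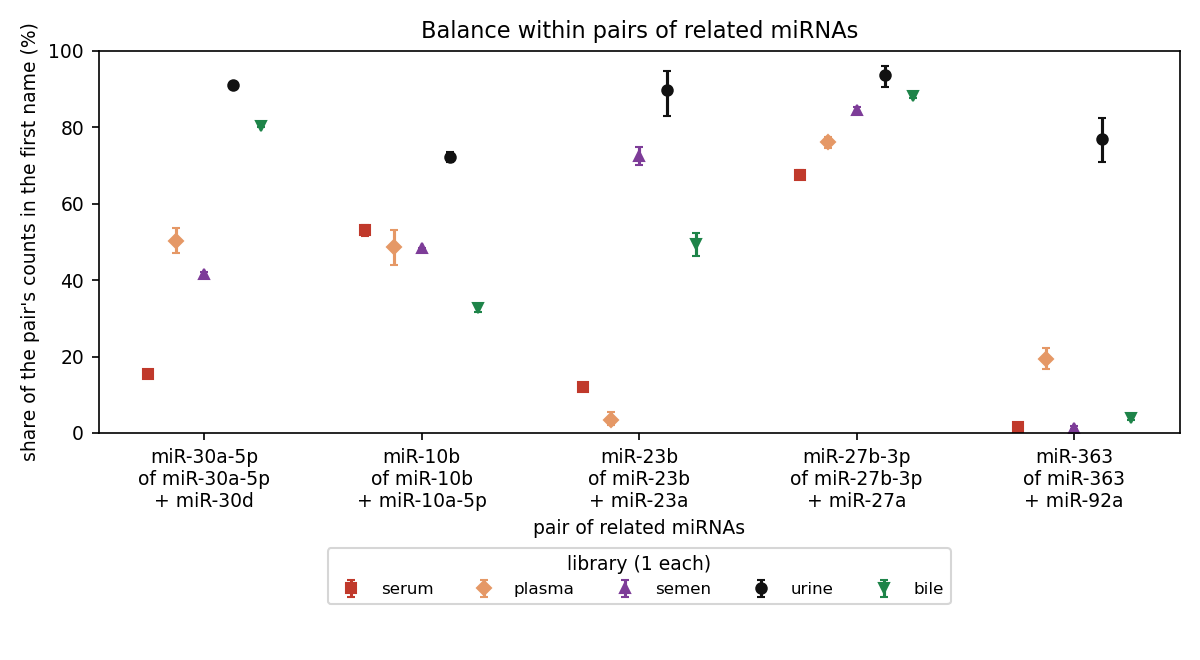
Share of the first miRNA in the summed counts of 5 pairs of related miRNAs (percent, axis 0 to 100) in the 5 libraries, with 95% counting intervals. The urine point is the highest in each pair, 91.1%, 72.2%, 89.8%, 93.7% and 77.0% from left to right. The 5 pairs were chosen from 11 after their values were seen.

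Names that mark blood cells were listed in urine about as often as all names, of which 84 of 237, or 35.4%, were. Of 9 erythrocyte names listed in any fluid, 3 were members: miR-451, made in red blood cells, with 124 counts, miR-363, and miR-92a. miR-451 was at 0.0551 times serum (0.0458 to 0.0658) and at 1.13 times both plasma and bile, or 0.101 and 0.524 times with TMM. The erythrocyte sum was 1.30% in urine and 0.793% in bile, 0.176% in semen, 0.877% in plasma and 14.2% in serum, and miR-363 gave 171 of the 346 urine counts. With TMM the urine sum was at 0.133 times plasma, and with DESeq2 size factors at 0.180 times. miR-486, the other leading red-cell miRNA, with 8179 counts in serum, and miR-185, with 2037, were listed at 0 in urine. Of 9 leukocyte names, miR-29a with 39 counts, miR-181a with 22 and miR-146a-5p with 15 were members, while miR-142, miR-150, miR-155 and miR-342 were listed at 0. The leukocyte sum was 0.287% in urine, 0.350% in bile, 0.303% in semen, 0.401% in plasma and 2.58% in serum. With TMM it was at 0.0637 times plasma and 0.379 times bile, and with DESeq2 size factors at 0.0864 times plasma. Of 12 names of the miR-17-92 cluster and its paralogs, which are active in proliferating cells, 3 were members. Their sum was 0.890% in urine, below serum (3.78%) and above bile (0.316%), semen (0.193%) and plasma (0.106%), but 0.746 times plasma with TMM. The part of blood cells in the urine profile was not tested.

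For other organs, the hepatocyte list had 5 of 7 names in urine, where miR-148a-3p gave 4401 counts and miR-122 gave 10. The hepatocyte sum was 18.4% in urine, below semen (53.2%), bile (52.3%) and serum (20.1%) and above plasma (3.14%). With TMM it was at 0.521 times plasma, and with DESeq2 size factors at 0.707 times plasma and 1.13 times serum. The endothelium list had 4 of 9, with miR-126-3p, the endothelial miRNA, at 14 counts and miR-221-3p at 14. miR-10a-5p gave most of the list's 4.78%, beside 5.54% in semen, 1.08% in serum, 0.524% in bile and 0.0865% in plasma. The smooth muscle and fibroblast list had 3 of 10, led by miR-27b-3p. Its sum was 1.54% in urine, below bile (4.02%) and above serum (1.24%), plasma (0.370%) and semen (0.199%), but 0.371 times plasma with TMM. miR-143-3p with 82 counts was at 1.52 times serum and 0.136 times bile. Against plasma it was at 3.90 times by share and 0.348 times with TMM. Of 5 male germ cell and epididymis names, miR-210 with 12 counts was listed, at 0.192 times semen, and miR-34c, miR-135, miR-184 and miR-202-5p were at 0.

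No member was 2-fold below all 4 other fluids by share (0 of 237 names listed in any fluid, 0%). Such a call needs at least 2 times 377 CPM in each of the other fluids. With TMM 3 members were called so, and on RPM 42. Relative to the median of the other 4, miR-122 was 18.8 times lower in urine, miR-423-5p 13.3 times, miR-320 5.73 times, miR-146a-5p 3.98 times, miR-423-3p 3.17 times and miR-186 2.49 times. miR-7134-3p, let-7c, miR-22-3p and miR-103 were 1.52 to 1.89 times lower. miR-423-5p, with 16 urine counts and 1587 to 194560 elsewhere, and miR-186, with 26 and 1613 to 9228, were the members whose urine share lay below all 4 others, and kept that place under all 4 other scalings. For miR-186 the intervals against bile (0.611 to 1.38) and plasma (0.457 to 1.03) included 1. The 5 most abundant names of the other fluids that urine did not list were miR-215, miR-296-3p, miR-486, miR-9820-5p and miR-185. miR-296-3p and miR-9820-5p were plasma miRNAs with 34789 and 12740 counts there. A listed 0 allows up to 9 urine reads, which by share is under 377 CPM. At 2 times that level, serum held 15 names not listed in urine, plasma 12, semen 3 and bile 3.

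Across the 84 members, Spearman's rho between urine and the other fluid's counts was 0.55 for bile, 0.53 for semen, 0.48 for serum and 0.20 for plasma. It is a description over miRNAs, which are not independent and share their library. The 20 most abundant names of urine included 14 of the 20 of semen, 14 of bile, 12 of serum and 7 of plasma. The overlap of the compositions, summed over names as the smaller of the 2 shares, was 53.5% with semen, 50.3% with serum, 48.3% with bile and 7.46% with plasma. The overlap with plasma was thus the smallest of the 4.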

How the data were processed

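The submitters' protocols name a commercial exosome reagent, Trizol extraction, gel selection of small RNA, adapter ligation and Illumina sequencing. The authors deposited a read count per mature miRNA name. Beside it the authors deposited a normalized value that behaves as RPM, the count scaled to 1000000 reads of a library total larger than the summed miRNA counts; which reads that total holds is unknown. Per the submitters' processing notes, bcl2fastq 2.17 and genome build Sscrofa10.2 were used. The sources used here name no aligner, annotation or rule for multiply matching reads. From the deposited counts, CPM, percent shares (exact Clopper-Pearson intervals) and ratios (exact conditional binomial intervals, 95%) were computed with scipy 1.17.1 and tested on simulated data. Members needed 10 urine counts; a listed 0 in another fluid was taken as 10; calls used 2-fold. edgeR 4.0.16 and DESeq2 1.42.0 gave alternative library sizes. With 1 library per fluid there was no test. The members and lists were chosen with earlier results of these data known. Names in the text followed a rule: the 20 most abundant, the 10 with the largest ratio to the next fluid (30 or more counts), the 10 with the smallest ratio to the median, the 5 most abundant elsewhere that urine did not list, and 2 per list; other names were chosen after their values were seen. The planned seed families and sequence features were not analysed here; named families were used.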

Additional observations from a re-analysis of the deposited data

How the results depend on the processing

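No paired analysis was possible because each fluid has 1 library. The 21 members above all 4 fluids became 15 with TMM, 16 with DESeq2 size factors and 18 without each library's most abundant miRNA, all of them among the 21, and 22 to 29 when 1 other library was left out; on the authors' RPM 1 was left. Members below all 4 went from 0 to 3 with TMM, 42 on RPM, 1 with ratios centred on the median (added after the data were seen), and 2 without the semen or without the bile library. On RPM the higher and lower counts were 10 and 61 for serum, 13 and 49 for plasma, 8 and 68 for semen, 3 and 73 for bile. With TMM they were 39 and 30 for plasma, with 16 lower than semen and 32 lower than bile. With DESeq2 size factors they were 41 and 28 for plasma, with 14 lower than semen and 18 lower than bile. Centring gave 40 and 28 for plasma, 16 lower than semen and 22 lower than bile. Totals without the most abundant miRNA gave 14 lower than semen and 16 lower than bile. With at least 30 urine counts, 21 were higher and 10 lower than serum, 2 lower than plasma, 29 higher and 1 lower than semen, and 26 higher and 6 lower than bile; fewer members were tested. Without a filter 40 names were lower than serum, 21 than plasma and 8 than semen. On RPM 7 of the 10 largest ratios turned below 1: miR-9 at 0.359, miR-204 at 0.470, miR-363 at 0.702, miR-30a-5p at 0.177, miR-30a-3p at 0.140, miR-30c-3p at 0.135 and miR-206 at 0.173; the cause was not tested. Raising the minimum to 30 counts left 50 of 84 members. Scaled to the urine total, 91 names would reach 10 counts in serum, 50 in plasma, 60 in semen and 61 in bile, in place of 180, 161, 174 and 179. Depth limits the 20 members under 20 counts most: miR-122, at 10, had a counting interval of 0.0181% to 0.0693%.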
